A study of Mus musculus with 4 samples.

Results

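Muscle-rich spots were compared in tibial muscle sections of Nse-Bmp4 mice, 1 uninjured and 3 taken on different days after injury. A spot is a small capture area of a spatial transcriptome array that collects RNA from several neighbouring cells, so a muscle-rich spot is a region and not a cell type. A spot entered when it held at least 2000 UMIs (unique molecular identifiers, each counting 1 captured RNA molecule) and when the summed UMIs of 9 fast-muscle genes, Acta1, Ckm, Myh4, Tnnt3, Tnni2, Tnnc2, Mylpf, Myl1 and Atp2a1, took a share of its UMIs at or above the 80th percentile of its own section. By this rule 2043 of the 10835 deposited spots were muscle-rich, with 418 of 2107 in the uninjured section (day 0) and 431 of 2667, 604 of 3029 and 590 of 3032 at days 1, 3 and 7. The remaining spots with at least 2000 UMIs, 8169 in all, are called the other spots.

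The study followed mesenchymal and immune cells while ectopic bone formed in injured muscle. All 4 sections came from mice labelled C57BL/6, 6-8 week old and Nse-Bmp4, a transgene in which the neuron-specific enolase promoter drives Bmp4, so the uninjured control carried it as well. Per the methods, injury was made with cardiotoxin, a snake venom toxin that lyses myofibres, and per the labels tibial muscle was taken uninjured (day 0) or at 1, 3 and 7 days after injury. The labels give 3 mixed muscles for a group, and how these muscles map onto a section was not given in the sources used here. Each day had 1 section, which leaves the spread between animals unmeasured and allows no test between days. All intervals below are at 95% and cover counting error only.

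Skeletal myofibres are long multinucleate cells built from sarcomeres, and fast and slow fibres use different isoforms of myosin, troponin and calcium pumps. After a toxin injury, fibres that were hit degenerate and are cleared by phagocytes, while satellite cells, the resident stem cells of muscle, divide, fuse and build new fibres that pass through embryonic and neonatal myosin isoforms. Fibres that survive near a lesion can also alter the RNA of their stretch sensors, stress proteins and protein-degradation enzymes.

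The spots were chosen by the summed share of the 9 markers, so the marker values are given as a description only. The lowest marker share among muscle-rich spots was 27.907%, 18.524%, 17.453% and 19.102% in the order of days, and the highest share just outside was 27.901%, 18.512%, 17.451% and 19.095%. Muscle-rich spots had a median marker share of 29.0%, 20.6%, 20.3% and 20.9% against 23.3%, 11.6%, 8.01% and 14.4% in the other spots. The gap between muscle-rich and other spots was thus narrowest at day 0 and widest at day 3. All 9 markers had UMIs in muscle-rich spots of every section, and Acta1, skeletal actin, took the largest share of UMIs among them at 6.84%, 4.0%, 4.61% and 4.74%. The rule itself fixed that these genes were high, so they do not check the label, and it took spots of a higher marker share at day 0 than at any later day.

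**Figure D1:**
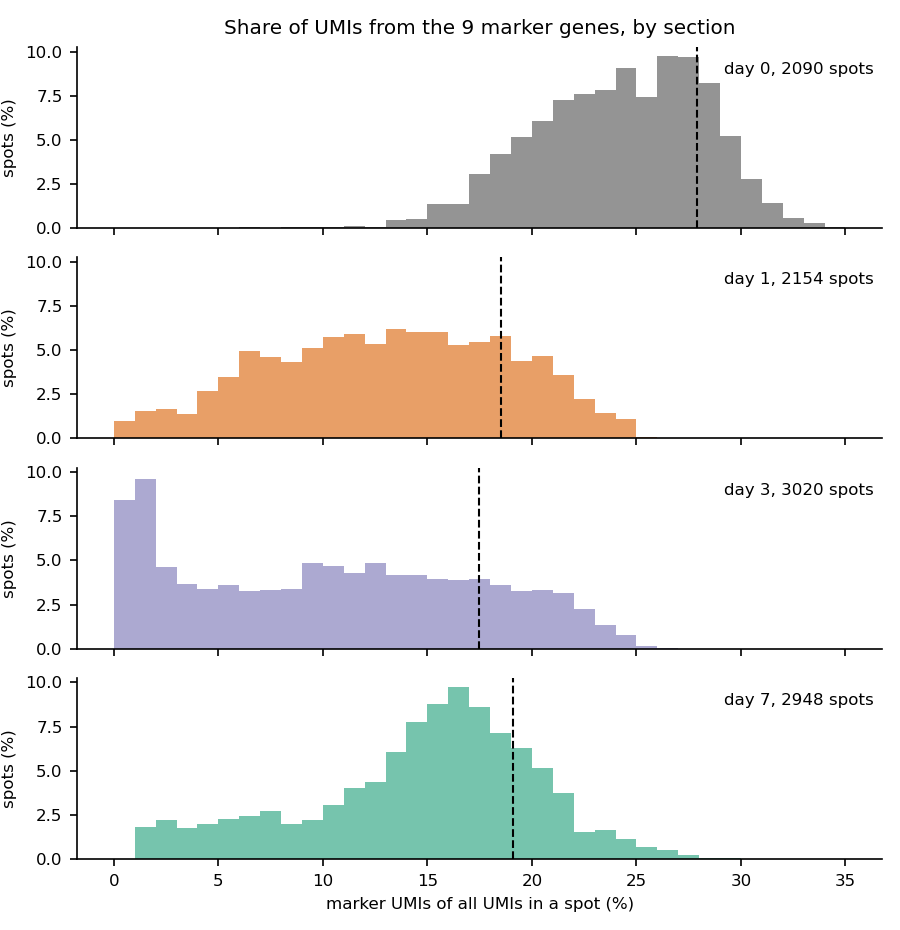
Share of a spot's UMIs that came from the 9 marker genes (x axis, percent) against the share of the section's spots with at least 2000 UMIs (y axis, percent), in bins of 1 percentage point, 1 panel per day. The dashed line is the 80th percentile above which a spot counted as muscle-rich. It lies at 27.9% at day 0 and between 17.5% and 19.1% on the injured days.

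No spot at days 1 and 3 and only 3 spots at day 7 reached the threshold of day 0. Days were therefore also compared in spots of the same marker share, from 19.1% to 25.6%, which held 973, 365, 419 and 555 spots in the order of days. This setting was chosen after seeing the data, is called the common score window below, and at day 0 holds no muscle-rich spot. Muscle-rich spots had a median of 20528, 8211, 9717.5 and 10741.5 UMIs in that order. Genes encoded by mitochondria took 11.1%, 16.3%, 15.5% and 14.8% of their UMIs, and 14.1%, 18.3%, 11.2% and 11.1% in the other spots. The sections used the same array design and shared 1341 position barcodes across all 4, of which 0 marked a muscle-rich spot in all 4.

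UMIs were summed over the muscle-rich spots of a section, the 9 markers were left out, and each gene was expressed as counts per 1000000 (CPM) of the remaining UMIs, which numbered 6091844, 2823047, 4899280 and 5607900. A gene was counted as changed when its CPM differed at least 2-fold, among genes with at least 10 CPM in either section. At day 1, 578 of 7698 genes were higher than at day 0 (7.51%) and 1158 were lower (15.0%). At day 3, 759 of 8044 genes were higher (9.44%) and 329 lower (4.09%), and at day 7, 648 of 8172 were higher (7.93%) and 97 lower (1.19%). Between consecutive injured days, 964 of 7812 genes were higher at day 3 than at day 1 (12.3%) and 89 lower (1.14%), while 537 of 8374 were higher at day 7 than at day 3 (6.41%) and 331 lower (3.95%). The comparisons with day 0 share 1 control section and are not independent.

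The balance of higher and lower genes depended on the scaling. With edgeR TMM factors, which moved all log2 ratios to day 0 by 0.17, -0.07 and -0.23 at days 1, 3 and 7, the counts of higher and lower genes were 824 and 849, 670 and 383, and 384 and 167. The same factors gave 555 higher and 203 lower genes for day 3 against day 1, and 359 and 429 for day 7 against day 3. A total that kept the markers gave 677 and 716 at day 1 and 843 and 188 at day 3, and the common score window gave 488 and 1745, 492 and 645, and 322 and 158. The 60 largest changes against day 0 that are named below kept their direction in all of the settings tried, 60 of 60. These were picked as the most extreme ratios of the same data, so the changes of scaling could not have turned them. In spots that hold several cells, fewer cells of a type and less RNA per cell cannot be told apart.

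Muscle-rich spots held RNA of infiltrating cells, always less of it than the other spots for macrophage and neutrophil genes. The list of 17 monocyte and macrophage genes summed to 386 CPM in the uninjured section and 1328, 2901 and 1432 at days 1, 3 and 7, against 623, 2525, 12294 and 3062 CPM in the other spots. All 17 were at least 2-fold higher at day 3 than at day 0, where 9.44% of all genes were. At day 1, 12 of 16 genes tested were higher, where 7.51% of all genes were. The median log2 ratio over the list was 2.31, 3.15 and 1.79 at days 1, 3 and 7, beside -0.14, 0.09 and 0.22 over all 13591 genes with at least 10 UMIs. Lyz2, the lysozyme of myeloid cells, stood at 105 CPM in the uninjured section and 603, 931 and 472 at days 1, 3 and 7. Spp1, the secreted phosphoprotein osteopontin, had 0 UMIs at day 0 and 17.7, 189 and 31.2 CPM afterwards, at least 383-fold higher at day 3 when day 0 is set to a floor of 3 UMIs over its muscle-rich spots. Its level in the other spots at day 3 was 1145 CPM. In spots thinned at random to 1000 UMIs without the markers, so that depth was equal, the muscle-rich spots held between 1.31 (10th percentile) and 4.45 (90th) UMIs of this list at day 3, and 30.7, 64.5, 90.9 and 64.8% of muscle-rich spots had a UMI of this list, against 38.8, 78.6, 98.2 and 79.9% of the other spots.

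The summed chemokine and neutrophil lists were highest at day 1, earlier than the macrophage list. The 11 chemokine genes summed to 52.5 CPM in the uninjured section and 789, 577 and 243 at days 1, 3 and 7. Ccl2, which draws monocytes, was at 0.821 CPM in the uninjured section and 52.1, 38.0 and 5.88 at days 1, 3 and 7. Ccl7, which shares that role, had 0 UMIs at day 0 and 51.4, 52.7 and 9.63 CPM afterwards. All 5 chemokine genes tested were at least 2-fold higher at days 1 and 3, where 7.51% and 9.44% of all genes were. Only genes with at least 10 CPM in either section were tested, a filter that a gene can pass by its rise alone. The neutrophil list of 10 genes reached 102 CPM at day 1, from 6.4 at day 0, and was back to 21.4 at day 3, while S100a8, a calcium-binding protein that neutrophils hold in bulk, went from 0 UMIs to 34.0 CPM. Genes of lymphocytes, 13 in the list, summed to at most 7.76 CPM in any section. What part RNA of these cells had in the changes of shared genes was not tested, and the level in the other spots is given below beside genes that such cells also use.

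Cartilage and bone genes were detected in muscle-rich spots mainly at day 7. The 16 fibroblast genes summed to 8442 CPM in the uninjured section and 1816, 4083 and 10076 at days 1, 3 and 7, with 11 of 14 tested lower at day 1 (15.0% of all genes) and 5 of 16 higher at day 7 (7.93% of all genes). The day 7 median of this list turned from 0.52 to -0.11 in the common score window, where the sums were 12963, 1774, 3961 and 10308 CPM. Col1a1, the main chain of type I collagen, was at 1989 CPM in the uninjured section and 164, 369 and 2579 at days 1, 3 and 7 in muscle-rich spots and at 14121 in the other spots at day 7. The 10 cartilage genes summed to 4.1 CPM in the uninjured section and 7.44, 16.7 and 333 at days 1, 3 and 7, and the other spots held 2279.9 at day 7. Col2a1 and Acan, the type II collagen and the aggrecan of cartilage, had 0 UMIs in the muscle-rich spots of days 0, 1 and 3, and reached 113 and 61.9 CPM at day 7. That is at least 229-fold and at least 126-fold above the day 0 floor of 3 UMIs. The bone genes Ibsp, a sialoprotein of mineralised matrix, and Sp7, an osteoblast transcription factor, went from 0 UMIs at day 0 to 43.2 and 11.4 CPM. Bone and cartilage RNA was less concentrated in muscle-rich spots than elsewhere in the day 7 section, with 79.9 against 445 CPM for the 8 bone genes, yet 28.2% of the thinned muscle-rich spots held a cartilage UMI, against 54.5% of the other spots.

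**Figure D2:**
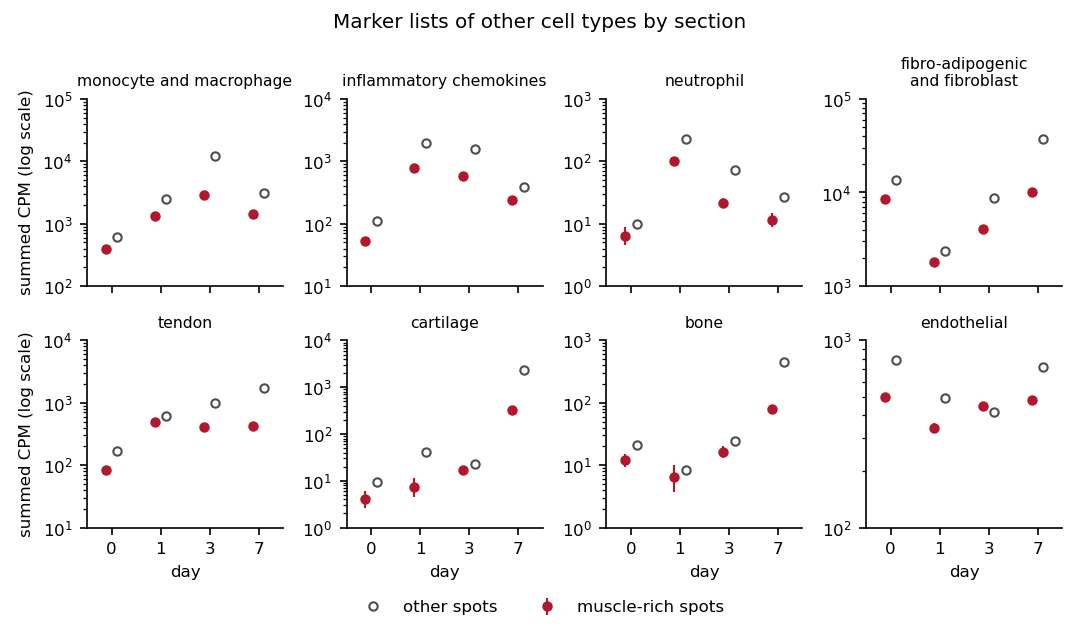
Summed CPM (y axis, log scale) of 8 marker lists of other cell types by day (x axis) in muscle-rich spots (filled red, bars are 95% Poisson intervals) and in the other spots (open). Macrophage RNA peaked at day 3 and cartilage and bone RNA rose at day 7, and for each of these 3 lists the other spots of that day lie above the muscle-rich spots.

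Among the remaining lists of other cells, tendon genes were higher on each injured day, with 4 of 5 tested past 2-fold at day 1 and 5 of 5 at days 3 and 7. Of all genes 7.51%, 9.44% and 7.93% were higher at days 1, 3 and 7. The tendon sums were 82.7 CPM in the uninjured section and 492, 413 and 422 at days 1, 3 and 7. Of 11 endothelial genes 5, 3 and 0 were lower in the order of injured days, where 15.0%, 4.09% and 1.19% of all genes were. Of 8 smooth muscle and pericyte genes tested, 3 were lower at day 1, 1 at day 3 and 0 at day 7. Adipocyte genes summed to between 637 and 756 CPM, Schwann cell and nerve genes to 169.7, 93.9, 100.2 and 255 CPM, and red cell genes, mostly haemoglobin, to 1342, 815, 858 and 884 CPM. In the common score window adipocyte genes summed to 1255.5, 762, 639 and 748 CPM and Schwann cell and nerve genes to 329, 95.4, 94.5 and 263. Both lists were thus below day 0 on each injured day there. Interferon-stimulated genes summed to 152, 452, 414 and 329 CPM, with 3 of 5 tested higher at day 1, 2 of 5 at day 3 and 8 of 10 at day 7, where 7.51%, 9.44% and 7.93% of all genes were. The median log2 ratio of this list was 0.85, 0.43 and 1.28, but 0.12, 0.03 and 0.75 in the common score window. Cell cycle genes summed to 128, 106, 194 and 118 CPM against 156, 320.0, 744 and 288 in the other spots.

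The lists of myofibre genes parted into those that fell and those that rose. At day 1 the median log2 ratio was lowest for satellite cell and myoblast genes (-1.11), fast contractile isoforms (-1.10), growth factors and myokines (-1.09) and creatine and phosphotransfer genes (-0.95), beside -0.14 over all genes. It was highest for slow contractile isoforms (3.15), stretch and sarcomere-stress genes (2.23) and immediate early and metallothionein genes (1.39). At day 7 embryonic and neonatal contractile genes led with 2.55, beside 0.22 over all genes.

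**Figure D3:**
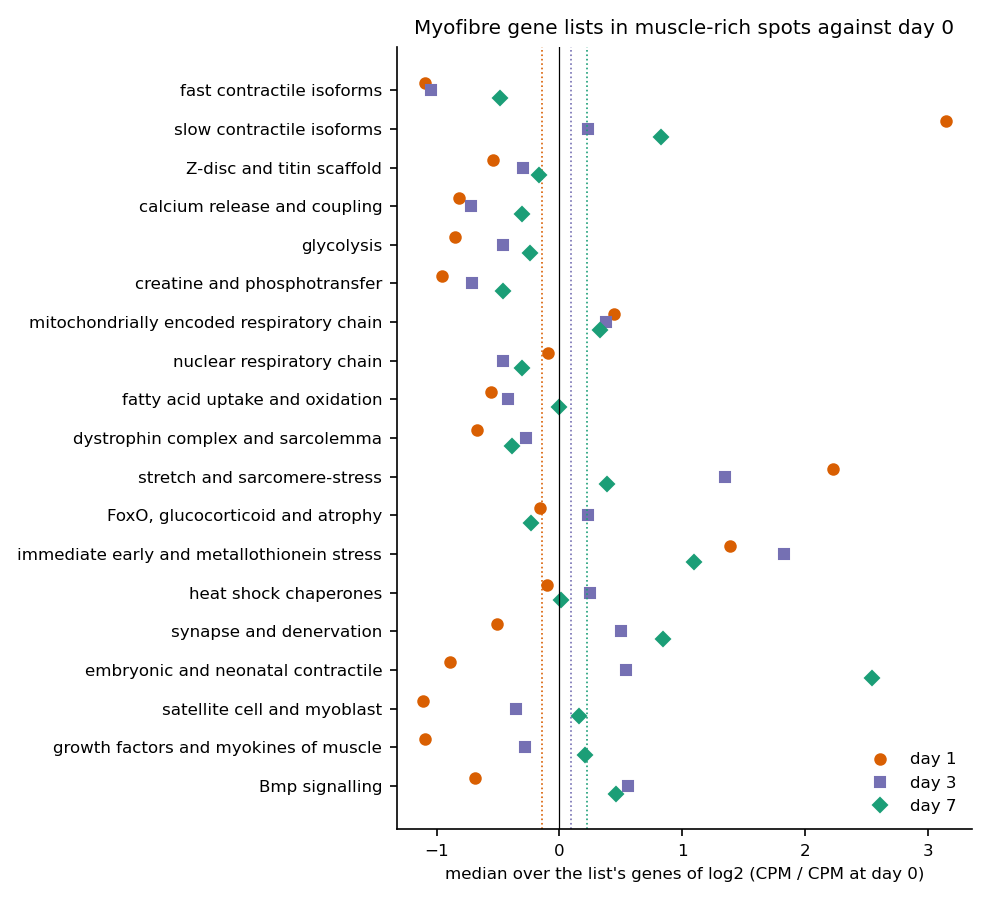
Median log2 ratio to day 0 (x axis) of 19 lists of myofibre genes (y axis) in muscle-rich spots at days 1, 3 and 7, with dotted lines at the median over all genes (-0.14, 0.09 and 0.22). Fast contractile isoforms lie below 0 on each injured day, and the stretch and the immediate early and metallothionein lists lie above it.

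Fast-fibre genes of the myofibre fell and had partly returned by day 7. The list of 12 fast contractile and fast calcium-handling genes, the 9 markers aside, summed to 103298 CPM in the uninjured section and 54304, 50669 and 69049 at days 1, 3 and 7. At day 1, 7 of the 12 were at least 2-fold lower and 1 was higher, against 15.0% and 7.51% of all genes, and at day 3, 7 were lower and 0 higher. At day 7 only Mybph, a myosin-binding protein, remained past 2-fold. Its level was 2058 CPM in the uninjured section and 416, 144 and 927 at days 1, 3 and 7, so that day 3 was 14.3-fold (95% interval 13.2 to 15.4) below day 0. Casq1, the calcium store protein of fast fibres, stood at 8241 CPM in the uninjured section and 2630.1, 3039.8 and 4567 at days 1, 3 and 7. Pvalb, the calcium buffer parvalbumin, was at 30064 CPM in the uninjured section and 14977, 14104 and 20489 at days 1, 3 and 7. Myoz1 and Mylk2, a Z-disc protein and a myosin light chain kinase of fast fibres, stayed within 2-fold at each day, with 2494, 2454, 1982 and 2010.4 and 567, 490.2, 553 and 630.2 CPM. The fall was smaller at equal marker share, where the list median was -0.73, -0.72 and -0.15, instead of -1.10, -1.05 and -0.49.

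Myh1 and Myh2, the myosin heavy chains of type IIX and IIA fibres, were lower in the muscle-rich than in the other spots of the uninjured section. Myh1 had 1581 CPM in muscle-rich and 4278 CPM in other spots at day 0, and Myh2 had 164 and 1051. In muscle-rich spots Myh1 went to 425 CPM at day 1, 3.72-fold (95% interval 3.5 to 3.96) lower, then to 848 and 1706. In the common score window, which at day 0 takes spots of a lower marker share, the fall was larger, from 4577 to 398, 707 and 1754 CPM.

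The slow isoforms were higher at day 1 in muscle-rich spots, but this did not hold at equal marker share. The 11 slow-fibre genes summed to 439.9 CPM in the uninjured section and 1422, 540.3 and 894 at days 1, 3 and 7. At day 1, 8 of 11 were at least 2-fold higher, against 7.51% of all genes. Myl3, a slow light chain, was at 29.1 CPM in the uninjured section and 382, 30.2 and 56.0 at days 1, 3 and 7. Myh7, the slow myosin heavy chain, was at 9.52 CPM in the uninjured section and 133, 13.9 and 24.1 at days 1, 3 and 7. Tnnt1, slow troponin T, was at 11.3 CPM in the uninjured section and 134, 18.2 and 87.9 at days 1, 3 and 7. The 3 genes thus stood between 11.9-fold and 14.0-fold above day 0 at day 1, and Myl3 and Myh7 were lower again at day 3, by 12.6-fold (95% interval 10.6 to 15.1) and 9.6-fold (95% interval 7.39 to 12.6) against day 1. In the common score window the list sums were 1866, 1196, 500.1 and 921 CPM, and Myl3 was at 262, 324, 25.0 and 56.7 and Myh7 at 115, 107, 14.9 and 24.7. There Myl3 and Myh7 were within 2-fold of day 0 at day 1 and at least 4-fold below it at days 3 and 7. Across muscle-rich spots the slow RNA of day 1 was uneven: after thinning, the top 10% of spots held 63.0% of the list's UMIs, against 23.1% at day 0. Tnni1, slow troponin I, differed from Myl3 in that it was highest at day 7, with 3.45 CPM in the uninjured section and 63.8, 16.7 and 75.8 at days 1, 3 and 7, and in the window with 36.7, 49.8, 17.1 and 79.2. Casq2, the calcium store protein of slow and cardiac muscle, went the other way, with 29.7 CPM in the uninjured section and 2.13, 8.57 and 32.1 at days 1, 3 and 7.

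Genes of excitation-contraction coupling and of energy supply followed the fast isoforms. Of 15 coupling genes 6, 3 and 2 were at least 2-fold lower at days 1, 3 and 7, against 15.0%, 4.09% and 1.19% of all genes. Of the same 15, 0 were higher at any of these days, against 7.51%, 9.44% and 7.93%. Sypl2, a protein of the triad membranes, was at 1454 CPM in the uninjured section and 276, 491 and 628 at days 1, 3 and 7. Hrc, a calcium-binding protein of the sarcoplasmic reticulum, was at 1292 CPM in the uninjured section and 341, 602 and 1300 at days 1, 3 and 7, back at its uninjured level by day 7. Ryr1, the calcium release channel, stayed within 2-fold with 1617, 1055, 1258 and 1332 CPM. In the common score window the coupling list had a median log2 ratio of -0.48, -0.33 and 0.03, against -0.82, -0.72 and -0.30 in muscle-rich spots. Its lower level at day 7 was thus not seen at equal marker share, and the falls at days 1 and 3 were smaller. Of 17 glycolytic genes 6, 1 and 0 were lower at days 1, 3 and 7, against 15.0%, 4.09% and 1.19% of all genes. The counts at days 3 and 7 were thus near the share of all genes. Pgam2, the muscle phosphoglycerate mutase, was at 7302 CPM in the uninjured section and 2643, 3922 and 5094 at days 1, 3 and 7. Gpd1, the cytosolic glycerol phosphate dehydrogenase, was at 872 CPM in the uninjured section and 229, 368 and 652 at days 1, 3 and 7. In the common score window the glycolysis list had a median log2 ratio of -0.53, 0.05 and 0.07, against -0.85, -0.46 and -0.24 in muscle-rich spots. The lower level at days 3 and 7 was thus not seen at equal marker share.

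Respiratory genes of the mitochondrial and nuclear genomes parted. The 13 mitochondrially encoded genes had a median log2 ratio of 0.45, 0.38 and 0.33 at days 1, 3 and 7, and the 21 nuclear genes of -0.10, -0.46 and -0.31. The mitochondrially encoded list had medians in the common score window of 0.18, 0.03 and 0.10, so most of its higher level was not seen at equal marker share. The day 1 value of the nuclear genes changed sign with TMM factors, to 0.08. Single genes stayed mostly within 2-fold, with 1 of 13 and 1 of 21 past it at day 1. The exceptions were mt-Nd4l, a subunit of complex I, at 311 CPM in the uninjured section and 733, 765 and 481 at days 1, 3 and 7, and Ndufs1, also of complex I, at 314 CPM in the uninjured section and 139.9, 184 and 277 at days 1, 3 and 7. Of 14 genes of fatty acid uptake and oxidation 3 were lower at day 1, near the 15.0% of all genes, 0 at day 3 and 1 at day 7. Among the 3 was Cd36, a fatty acid transporter, at 165 CPM in the uninjured section and 68.4, 83.5 and 159 at days 1, 3 and 7. The fall of the fatty acid list was larger in the common score window, with medians of -1.02, -0.84 and -0.38 instead of -0.56, -0.42 and -0.008. At day 0 this list summed to 3123 CPM in the window and to 2089 in muscle-rich spots.

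Stretch and sarcomere-stress genes were higher at days 1 and 3 in muscle-rich spots. At day 1, 8 of 14 were at least 2-fold higher and 1 lower, against 7.51% and 15.0% of all genes. At day 3 again 8 were higher and 1 lower, against 9.44% and 4.09% of all genes. The median log2 ratios were 2.23 at day 1 and 1.35 at day 3. Csrp3, a LIM protein that senses strain at the Z-disc, was at 9.36 CPM in the uninjured section and 676, 156 and 18.7 at days 1, 3 and 7. Mustn1, a small nuclear protein of muscle and skeleton, was at 48.4 CPM in the uninjured section and 1908, 469 and 226 at days 1, 3 and 7. These are 72.2-fold (95% interval 55.5 to 95.7) and 39.4-fold (95% interval 35.0 to 44.4) above day 0 at day 1. In the common score window Csrp3 was at 70.4 CPM at day 0 and its ratio at day 1 was 8.64-fold, while that of Mustn1 was 26.2-fold.

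Small heat shock proteins that guard the sarcomere moved with them. Cryab, alpha-B-crystallin, was at 703 CPM in the uninjured section and 4002, 1724 and 910.3 at days 1, 3 and 7. Hspb7, a chaperone of striated muscle, was at 50.2 CPM in the uninjured section and 968, 425 and 81.7 at days 1, 3 and 7. Hspb1 was at 363 CPM in the uninjured section and 1402, 956 and 334 at days 1, 3 and 7, whereas Hspb8 and its partner Bag3, which clear damaged filamin, stayed within 2-fold, with 460.4, 564, 611 and 606 and 189, 152, 192 and 174 CPM. Flnc, the filamin of muscle, was at 369 CPM in the uninjured section and 1616, 719.7 and 345 at days 1, 3 and 7. The other spots held more of Csrp3, Mustn1 and Cryab than the muscle-rich spots at day 1, with 1599, 4501 and 8699.9 CPM, so the spots richest in muscle did not hold the highest level of these genes. Of the ankyrin repeat genes, Ankrd1 and Ankrd2 were higher at day 1 with 84.0 and 285 CPM from 3.78 and 22.7, and Ankrd23, their relative, was lower with 766 from 1674. The day 1 ratio in the common score window was 38.7-fold for Ankrd1 and for Ankrd2 2.49-fold, while Ankrd23 was 1.5-fold lower and Cryab at day 3 was 1.66-fold higher, neither past 2-fold. Nmrk2, a kinase of the NAD salvage route, kept its higher level, at 21.2 CPM in the uninjured section and 126, 189 and 149 at days 1, 3 and 7. Sln, sarcolipin, a small inhibitor of the calcium pump, behaved apart from the list and was at 15.9 CPM in the uninjured section and 25.1, 4.9 and 322 at days 1, 3 and 7, 20.2-fold (95% interval 16.5 to 25.1) above day 0 at day 7. Tcap, the titin cap at the Z-disc, was higher on each injured day, at 1324 CPM in the uninjured section and 4307, 2961 and 4384 at days 1, 3 and 7, while 12 of the 18 Z-disc and titin genes stayed within 2-fold at day 1 and 17 at days 3 and 7.

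Metallothioneins and immediate early genes summed to 908 CPM in the uninjured section and 4599, 9730 and 946 at days 1, 3 and 7 in muscle-rich spots and to 907, 7400.1, 6291 and 1335 in the other spots, which were above the muscle-rich spots at day 1 and below them at day 3. Mt1 and Mt2 encode small cysteine-rich proteins that bind zinc and copper and are induced by metals, glucocorticoids and oxidative stress. Their RefSeq promoter windows of 300 bases, from 250 before to 50 after the annotated gene start (GRCm38.p6, plus strand), are shown because this pair made up most of the list's RNA at day 3. Capitals mark matches of TGCGCNC, which covers part of the core of the metal response element, searched on both strands. The other form of that core, TGCACNC, was not searched, so the counts below are of TGCGCNC only. Mt1 lies at chr8:94178839-94179138 and Mt2 at chr8:94172368-94172667.
Mt1: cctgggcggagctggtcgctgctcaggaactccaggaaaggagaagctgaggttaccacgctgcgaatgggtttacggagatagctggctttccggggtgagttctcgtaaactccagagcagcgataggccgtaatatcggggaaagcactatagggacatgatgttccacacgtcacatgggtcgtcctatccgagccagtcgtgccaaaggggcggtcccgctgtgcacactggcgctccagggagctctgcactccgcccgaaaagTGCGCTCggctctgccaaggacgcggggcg
Mt2: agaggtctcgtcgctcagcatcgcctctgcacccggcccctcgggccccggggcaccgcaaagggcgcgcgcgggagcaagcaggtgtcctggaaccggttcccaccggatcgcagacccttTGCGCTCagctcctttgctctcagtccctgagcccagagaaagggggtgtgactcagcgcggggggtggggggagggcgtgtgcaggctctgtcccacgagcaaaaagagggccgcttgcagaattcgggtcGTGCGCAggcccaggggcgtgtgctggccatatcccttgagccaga
The Mt1 window held 1 match, the Mt2 window 2 and the window of the related gene Mt3 held 0. Of 32851 promoter windows of this length, 15.4% held at least 1 and 4.2% at least 2. A match of these letters is a description of the window, and other starts of these genes were not examined.

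Mt1 was at 426 CPM in the uninjured section and 2924, 4968 and 339.9 at days 1, 3 and 7 in muscle-rich spots and at 438, 4325, 3266 and 437 in the other spots. Mt2 was at 266 CPM in the uninjured section and 1302, 3702 and 249 at days 1, 3 and 7 in muscle-rich spots and at 239, 2287, 2175 and 309.5 in the other spots. At day 1 both were higher in the other spots, and at day 3 both were higher in the muscle-rich spots, where day 3 exceeded day 0 by 11.7-fold (95% interval 11.2 to 12.2) for Mt1 and 13.9-fold (95% interval 13.2 to 14.7) for Mt2. By day 7 both were within 2-fold of the uninjured section, and the common score window gave almost the same ratios at day 3, 10.5-fold and 14.2-fold. Mt3, a family member, was highest at day 1, at 13.8 CPM in the uninjured section and 289, 34.9 and 46.0 at days 1, 3 and 7. After thinning, 22.1, 61.8, 86.0 and 15.5% of muscle-rich spots had a UMI of Mt2 in the order of days, and 19.98, 78.3, 75.3 and 20.6% of the other spots. Across the muscle-rich spots of day 3 the Spearman rho of Mt1 with Mt2 was 0.673, over 604 spots that share a section and depth after thinning, and at day 0 it was 0.063.

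Of the 14 immediate early and metallothionein genes, 8, 11 and 6 were at least 2-fold higher at days 1, 3 and 7, against 7.51%, 9.44% and 7.93% of all genes. Junb, a partner of Fos in AP-1, was at 12.3 CPM in the uninjured section and 52.1, 488 and 48.0 at days 1, 3 and 7, with 254 in the other spots at day 3. Fos was at 5.58 CPM in the uninjured section and 14.2, 132 and 24.3 at days 1, 3 and 7. Rrad, a small GTPase that dampens calcium channels, was at 1.97 CPM in the uninjured section and 88.9, 811 and 63.8 at days 1, 3 and 7. Its ratio at day 3 was 412-fold (95% interval 236 to 798), from 12 UMIs at day 0, and 87.3-fold in the common score window. These genes thus shared with Mt1 and Mt2 a peak at day 3 in muscle-rich spots. Hmox1, haem oxygenase, peaked at day 1 instead, at 3.28 CPM in the uninjured section and 62.7, 31.6 and 9.63 at days 1, 3 and 7. Card14, a scaffold of NF-kappaB signalling, was at 1.48 CPM in the uninjured section and 3.19, 67.6 and 3.39 at days 1, 3 and 7, and Lcn2, lipocalin 2, an iron-trapping protein of inflammation, at 1.15 CPM in the uninjured section and 14.9, 50.6 and 3.74 at days 1, 3 and 7, so that both were highest at day 3. Serpina3n, a secreted protease inhibitor, was at 1.64 CPM in the uninjured section and 19.5, 114 and 24.1 at days 1, 3 and 7. Mss51, a mitochondrial protein of fast muscle, was at 5.25 CPM in the uninjured section and 64.8, 285 and 38.5 at days 1, 3 and 7, with 58.4 in the other spots at day 3. Of the general heat shock chaperones, only Hspa1a and Hspa1b, near-identical copies whose reads cannot be parted with certainty, passed 2-fold, at day 1, and 10 of 10 tested stayed within it at day 3.

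**Figure D4:**
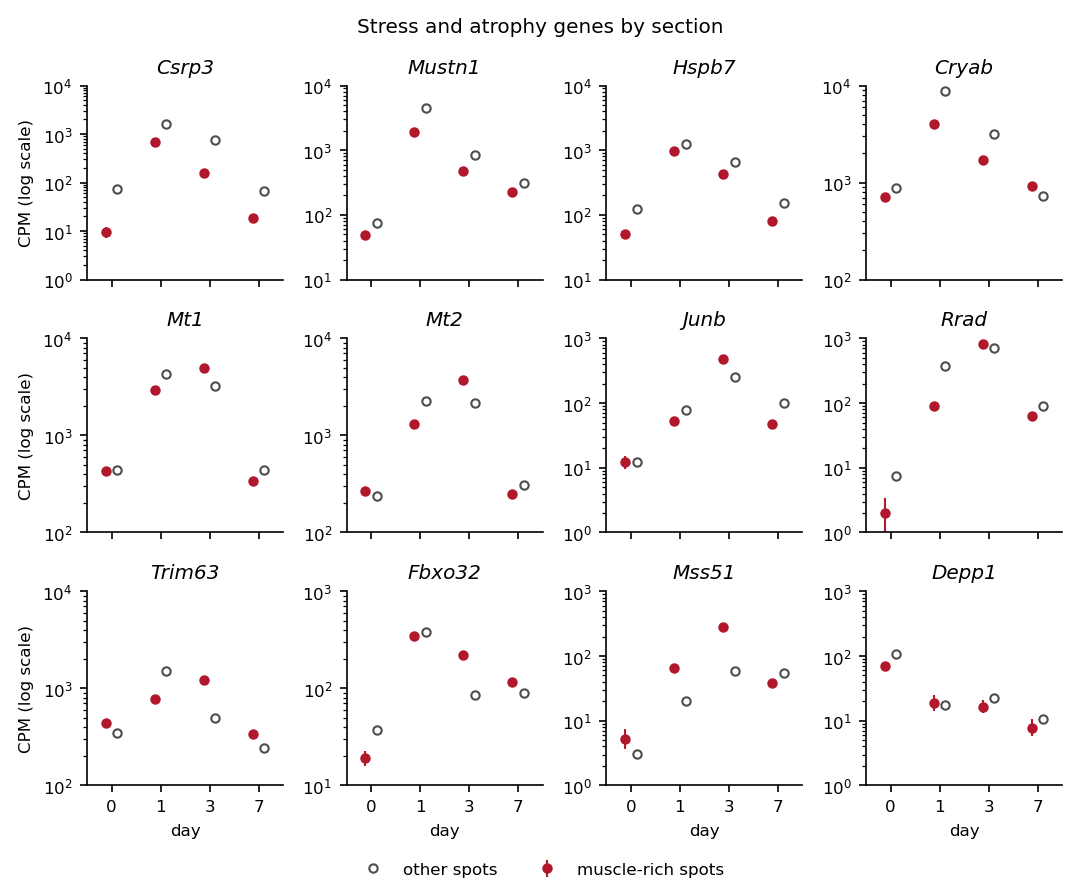
CPM (y axis, log scale) by day (x axis) of 12 stress and atrophy genes in muscle-rich spots (filled red, bars are 95% Poisson intervals) and in the other spots (open). Csrp3, Mustn1, Hspb7 and Cryab peaked at day 1 with the other spots above, and Mt1, Mt2, Junb, Trim63, Fbxo32 and Mss51 were higher in the muscle-rich spots at day 3.

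The genes of FoxO, glucocorticoid and atrophy signalling held 4 of 17 higher and 3 lower at day 1, where 7.51% and 15.0% of all genes were, and 5 higher and 3 lower at day 3, where 9.44% and 4.09% were. Both muscle ubiquitin ligases were past 2-fold at day 3. Trim63, which encodes MuRF1, was at 436 CPM in the uninjured section and 775, 1208 and 339 at days 1, 3 and 7 in muscle-rich spots and 349.8, 1514, 494 and 244 in the other spots. Fbxo32, which encodes atrogin-1, was at 19.04 CPM in the uninjured section and 344, 219.6 and 117 at days 1, 3 and 7. At day 3 Trim63 was thus more than 2-fold higher in muscle-rich than in other spots, as was Fbxo32 with 219.6 against 85.1. Eif4ebp1, a brake on translation, was at 87.8 CPM in the uninjured section and 468, 196 and 73.8 at days 1, 3 and 7. Fkbp5, a target of the glucocorticoid receptor, was at 18.9 CPM in the uninjured section and 50.3, 50.01 and 28.5 at days 1, 3 and 7. Depp1 and Ddit4 were instead lower on all 3 injured days. Depp1, a FoxO target, was at 69.4 CPM in the uninjured section and 18.8, 16.5 and 7.85 at days 1, 3 and 7. Ddit4, an inhibitor of mTOR, was at 202 CPM in the uninjured section and 32.6, 64.5 and 35.1 at days 1, 3 and 7. Both were still 8.85-fold (95% interval 6.48 to 12.4) and 5.76-fold (95% interval 4.95 to 6.73) below day 0 at day 7, and Slc25a25, a mitochondrial carrier, Ppp1r27, a phosphatase subunit, and Nfil3, a repressor of the circadian system, were also among the genes lowest at day 7, with 35.8, 174 and 31.2 CPM from 214, 835 and 133.

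Genes of the developing myofibre divided. Actc1, cardiac actin, which fetal and regenerating muscle also uses, was abundant without injury, at 12405 CPM in the uninjured section and 373, 112 and 1944 at days 1, 3 and 7. It was 33.3-fold (95% interval 31.3 to 35.4) lower at day 1 and 111-fold (95% interval 102 to 121) lower at day 3, and at day 7 still 6.38-fold (95% interval 6.26 to 6.51) lower. The other spots held 7001, 263, 159.9 and 916 CPM, and the common score window 6546, 373, 117 and 1930.1, so the fall was seen in each set of spots. Actc1 made up most of the sum of the embryonic and neonatal contractile list at day 0, and that sum was 12849.8 CPM in the uninjured section and 981, 777 and 2805 at days 1, 3 and 7. Yet 4 of 6 genes tested were higher at day 7 and only Actc1 lower, against 7.93% and 1.19% of all genes. Myh8, the neonatal myosin heavy chain, was at 3.94 CPM in the uninjured section and 1.42, 1.22 and 75.3 at days 1, 3 and 7. Myh3, the embryonic one, was at 1.48 CPM at day 0, had 0 UMIs at day 1, and was at 10.0 at day 3 and 32.1 at day 7. Myl4, the embryonic light chain, was at 12.6 CPM in the uninjured section and 14.2, 33.5 and 229 at days 1, 3 and 7. Day 7 exceeded day 0 by 19.1-fold (95% interval 12.7 to 30.1) for Myh8 and 18.1-fold (95% interval 14.4 to 23.1) for Myl4. These transcripts were more abundant in the other spots, where Myh8 had 233 and Myl4 453 CPM at day 7, and after thinning 5.0% of muscle-rich spots had a UMI of Myh8 at that day.

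**Figure D5:**
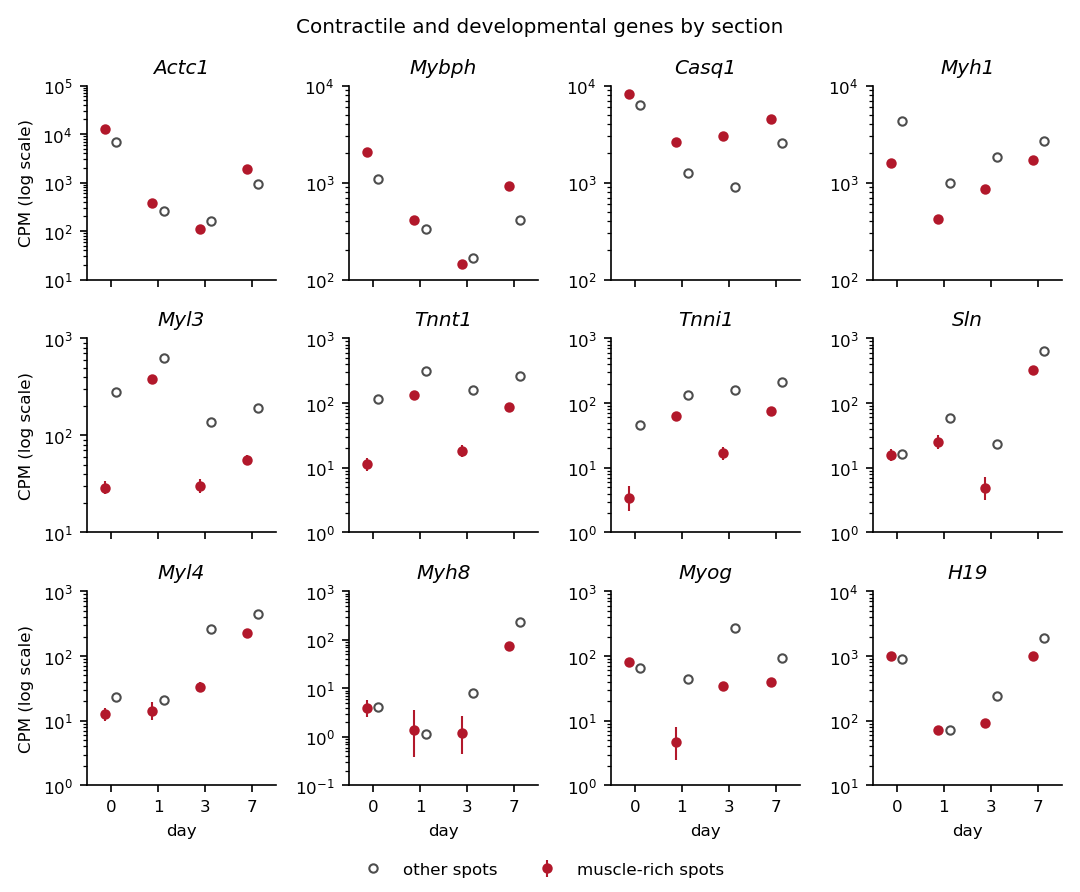
CPM (y axis, log scale) by day (x axis) of 12 contractile and developmental genes in muscle-rich spots (filled red, bars are 95% Poisson intervals) and in the other spots (open). Actc1, Mybph and H19 fell after injury and came back in part or in full by day 7, the slow genes Myl3, Tnnt1 and Tnni1 lay below the other spots on each day, and Sln, Myl4 and Myh8 rose at day 7.

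Regulators of myogenesis fell at day 1 in muscle-rich spots. Of 8 satellite cell and myoblast genes tested 5 were at least 2-fold lower and 0 higher, against 15.0% and 7.51% of all genes. Myog, which drives the differentiation of myoblasts, was at 79.5 CPM in the uninjured section and 4.61, 33.9 and 40.3 at days 1, 3 and 7, and at 65.4, 44.0, 267 and 93.6 in the other spots. Myod1, which acts before it, was at 56.0 CPM in the uninjured section and 33.3, 188 and 71.0 at days 1, 3 and 7. Myod1 was thus 3.36-fold (95% interval 2.96 to 3.81) higher at day 3, when Myog was still 2.34-fold (95% interval 1.96 to 2.81) below day 0. Cdkn1c, a cell cycle inhibitor of differentiating muscle, was at 113 CPM in the uninjured section and 14.9, 14.7 and 51.2 at days 1, 3 and 7.

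Of 12 growth factors and myokines tested at day 1, 7 were lower and 2 higher, against 15.0% and 7.51% of all genes. H19, an imprinted noncoding RNA, was at 983 CPM in the uninjured section and 73.0, 91.6 and 989.9 at days 1, 3 and 7. Igf2, its neighbour, which encodes a growth factor, was at 79.9 CPM in the uninjured section and 7.79, 16.5 and 98.6 at days 1, 3 and 7. Meg3, another imprinted noncoding RNA, was at 107 CPM in the uninjured section and 10.3, 13.5 and 84.5 at days 1, 3 and 7. All 3 had returned to within 2-fold of the uninjured section at day 7, after falls of 13.5-fold (95% interval 11.7 to 15.6), 10.3-fold (95% interval 6.7 to 16.5) and 10.4-fold (95% interval 7.2 to 15.7) at day 1. Igfbp5, which binds insulin-like growth factors, was at 687 CPM in the uninjured section and 69.4, 403 and 643 at days 1, 3 and 7, and Vegfa, the angiogenic growth factor, at 88.5 CPM in the uninjured section and 18.8, 71.4 and 98.8 at days 1, 3 and 7. Mstn, myostatin, the inhibitor of muscle growth, stayed within 2-fold at each injured day, at 71.7 CPM in the uninjured section and 46.8, 101 and 104 at days 1, 3 and 7. Metrnl, a secreted myokine, and Angptl4, an inhibitor of lipoprotein lipase, were the 2 that rose at day 1. Metrnl was at 8.86 CPM in the uninjured section and 41.1, 29.8 and 22.5 at days 1, 3 and 7, and Angptl4 at 13.6 CPM in the uninjured section and 27.6, 70.8 and 3.74 at days 1, 3 and 7, with 162 in the other spots at day 3.

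At the membrane, 7 of 18 genes of the dystrophin complex and sarcolemma were at least 2-fold lower at day 1, with 4 and 1 at days 3 and 7, against 15.0%, 4.09% and 1.19% of all genes. Aqp4, the water channel anchored by the complex in fast fibres, was at 64.3 CPM in the uninjured section and 1.42, 4.29 and 15.9 at days 1, 3 and 7, which is 45.4-fold (95% interval 17.6 to 168) below day 0 at day 1, from 4 UMIs, and 4.05-fold (95% interval 3.21 to 5.16) below at day 7. Dmd, dystrophin, was at 69.9 CPM in the uninjured section and 28.3, 63.5 and 76.0 at days 1, 3 and 7. Cav3 and Dysf, of muscle caveolae and membrane repair, stayed within 2-fold, with 153, 210.1, 127 and 103 and 69.4, 93.5, 73.7 and 49.6 CPM. Of the synaptic and denervation genes 3 of 10 were higher at day 7 and 0 lower, against 7.93% and 1.19% of all genes. Chrna1, the acetylcholine receptor subunit that spreads along denervated and immature fibres, was at 29.4 CPM in the uninjured section and 17.4, 49.6 and 125 at days 1, 3 and 7. Runx1, which rises in denervated muscle, was at 5.91 CPM in the uninjured section and 10.3, 54.7 and 14.6 at days 1, 3 and 7, with 106 in the other spots at day 3.

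Because the mice carry a Bmp4 transgene, genes of the Bmp pathway were examined in order of their role. The ligand Bmp4 itself was low in muscle-rich spots, with 54, 7, 30 and 64 UMIs over all muscle-rich spots of a section in the order of days, and the counts do not tell the transgene from the mouse gene. The receptors Bmpr1a and Bmpr2 were at 54.8, 26.9, 37.6 and 42.3 and 47.3, 37.5, 53.1 and 65.1 CPM, and Acvr1, also a receptor, at 12.5, 6.73, 18.4 and 14.1. Only Bmpr1a was past 2-fold among these 3, at day 1. Smad5, a signal transducer, was at 30.2 CPM in the uninjured section and 18.8, 76.5 and 33.2 at days 1, 3 and 7. The targets Id1 and Id3, inhibitors of differentiation, were at 20.03, 51.0, 40.6 and 37.8 and at 29.7, 82.5, 92.3 and 87.6 CPM. Both were above day 0 on each injured day, and Id3 at least 2-fold. In the common score window the Id1 ratio was 1.43-fold, 1.29-fold and 1.25-fold, and that of Id3 1.66-fold, 1.97-fold and 1.95-fold, so that neither passed 2-fold there. Smad7 and Nog, which restrain the pathway, reached 25.9 and 22.2 CPM at day 3 from 6.73 and 2.95. In all, 6 of 10 Bmp genes tested were higher at day 3 and 0 lower, against 9.44% and 4.09% of all genes. The count includes Id1 and Id3, and the list median at day 3 was 0.56 in muscle-rich spots and 0.37 in the common score window.

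The rule for single genes, which left out the 9 markers and mitochondrially encoded genes, took the 10 largest and 10 smallest ratios to day 0 at each injured day, among genes with at least 50 CPM in either section, and picked several outside the lists. Prg4, the lubricating proteoglycan of joint and tendon surfaces, had 2 UMIs at day 0 and was at 0.328, 80.8, 94.1 and 14.6 CPM, a ratio of 246-fold (95% interval 67.3 to 2044) at day 1. Lgals3, the galectin of macrophages and injured tissue, was at 6.24 CPM in the uninjured section and 252, 312 and 105 at days 1, 3 and 7. S100a4 was at 18.4 CPM in the uninjured section and 607, 206 and 91.3 at days 1, 3 and 7, Cd52, a leukocyte surface protein, at 4.1 CPM in the uninjured section and 142, 106 and 20.9 at days 1, 3 and 7, and Timp1, the inhibitor of metalloproteinases, at 4.43 CPM in the uninjured section and 111, 131 and 27.1 at days 1, 3 and 7. For Lgals3 and Timp1 the other spots had more at each injured day, with 13.1, 567, 983 and 253 and 7.1, 170.0, 369 and 125 CPM. Trem2 and Gpnmb, of lipid-loaded macrophages, were among the 10 at day 3, with 66.1 and 85.5 CPM against 227 and 370.1 in the other spots. At day 7 the matrix genes Comp, Cthrc1 and Col12a1 joined, with 94.2, 61.9 and 129 CPM from 0.328, 0.657 and 4.6, together with the kinase gene Sbk2, at 3.12 CPM in the uninjured section and 45.0, 77.6 and 76.3 at days 1, 3 and 7, which was higher in muscle-rich than in other spots at day 7, 76.3 against 59.8.

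Among the genes that fell most, the noncoding B230312C02Rik was at 275 CPM in the uninjured section and 14.5, 22.2 and 44.8 at days 1, 3 and 7 and Tceal7, a transcription elongation factor-like gene, at 305 CPM in the uninjured section and 24.8, 41.4 and 48.0 at days 1, 3 and 7. Neither was back by day 7. Aldoart1, a retrogene of aldolase A that can share reads with it, was at 228 CPM in the uninjured section and 13.5, 56.7 and 221 at days 1, 3 and 7 and is uncertain for that reason. Rflnb, a binding partner of filamin, and Nrep were at 96.2, 14.9, 15.5 and 27.1 and 275, 54.9, 44.7 and 125 CPM. At day 7 the gene 2310065F04Rik was among the 10 lowest, at 385 CPM in the uninjured section and 252, 159 and 98.97 at days 1, 3 and 7.

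Between day 1 and day 3 the 5 largest ratios were Hes1, Card14, Irgm2, Gm4841 and Tnfaip2. Hes1, a Notch target, was at 16.9 CPM in the uninjured section and 7.08, 193 and 30.8 at days 1, 3 and 7, 27.3-fold (95% interval 17.5 to 44.8) higher at day 3 than at day 1, and at 53.5 in the other spots at day 3. The interferon-inducible GTPases Irgm2 and Gm4841 were at 21.2, 6.73, 104 and 34.8 and 35.8, 4.96, 74.5 and 62.8 CPM, and Tnfaip2 at 85.4, 13.8, 197 and 72.4. These 3 had been below day 0 at day 1. The 5 smallest were Myl3, Myh7, Myl2, Mt3 and Tnnt1, of which all but Mt3 are slow-fibre genes. Between day 3 and day 7 the largest were Col2a1, Acan, Sln, Myh8 and C1qtnf3, a secreted protein of cartilage, which was at 7.22 CPM in the uninjured section and 1.42, 4.49 and 88.4 at days 1, 3 and 7, and the smallest were Card14, Angptl4, Mt2, Mt1 and Lcn2. Mt1 fell by 14.6-fold (95% interval 13.9 to 15.3) and Mt2 by 14.9-fold (95% interval 14.1 to 15.7) over these days.

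Muscle-rich spots of a section also differed among themselves. After thinning, the top 10% of spots held 12.1, 12.6, 12.8 and 12.7% of the UMIs of the fast list in the order of days, near the share of an even spread, but 23.1, 63.0, 34.9 and 30.9% of the slow list and 22.6, 24.9, 20.9 and 45.1% of the immediate early and metallothionein list. The stretch list was more even at 14.1, 19.7, 19.2 and 15.6%. For the metallothionein and immediate early list the spots at day 3 held a median of 10.2 UMIs per 1000, with 2.21 at the 10th and 18.8 at the 90th percentile, against 0.3 and 1.56 at day 0. At day 7 the median was back to 0.6 while the top 10% of spots held 45.1%.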

How the data were processed

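Spatial transcriptome libraries of 4 tibial muscle sections, 1 per day, were analysed. The deposited values are raw UMI counts per gene and spot over tissue, made by the authors with Space Ranger on mm10 (the matrix headers name version 1.2.0, the methods a later version, and the labels Cell Ranger). Counts were used as deposited, from 32285 features. No doublet caller was run and spot positions were not used. Muscle-rich spots were chosen by the 9 markers at the 80th percentile of each section, among spots with at least 2000 UMIs, and the markers were left out of every comparison. Members, gene lists and the rule for single genes were chosen with earlier results of these data known.

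Counts were summed over spots and given as CPM. With 1 section per day no test was run. Exact Poisson intervals were used for CPM and exact conditional binomial intervals for ratios, at 95%. The intervals cover counting error only. For the 2-fold calls and the ranking of genes, each count under 3 UMIs over the spots of a group was entered at a floor of 3. Ratios printed as at least a value also used this floor. The printed ratio of Prg4 used its own count of 2 UMIs at day 0. List medians used genes that reached 10 UMIs summed over all sections, with counts under 3 entered at 3. Of 431 list symbols 430 matched 1 feature each, and Aldoa, with more than 1 feature, was left out. The genes named were the 10 largest and 10 smallest ratios to day 0 per day and the 5 largest and 5 smallest for day 3 against day 1 and day 7 against day 3, with at least 50 CPM in either section, and list genes. Spots were thinned to 1000 UMIs without the markers in 20 draws (seed 1). Alternatives were TMM factors (edgeR 4.0.16), size factors (DESeq2 1.42.0), other totals, percentiles, depth minimums, spot weights and filters. Scripts were tested on simulated data. Python 3.11.15, pandas 2.3.3, SciPy 1.17.1 and R 4.3.3 were used. Promoter sequences came from RefSeq tables.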

Additional observations from a re-analysis of the deposited data

How the results depend on the processing

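Named changes against day 0 kept their direction under each alternative run, 60 of 60. They were picked as the most extreme ratios, so the changes of scaling could not have turned them. Direction was also kept by 30 of 33 list medians past 2-fold and 72 of 102 list medians in all. The 33 include the day 1 medians of the lymphocyte, tendon, cartilage and bone lists, each at 1.11. That is the value of a gene entered at the floor of 3 UMIs in both sections, so these medians do not measure a change. The 3 that changed sign include slow contractile isoforms at day 1, from 3.15 to -0.0975 in the common score window. The other changes of sign came with summed UMIs in place of the median over genes. Embryonic and neonatal contractile genes at day 7 went from 2.55 to -2.20, where Actc1 holds most UMIs. Bone genes at day 1 went from the floor value of 1.11 to -0.910, so no measured rise was reversed there.

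Counts of genes past 2-fold depended on scaling and filter. With a total that kept the markers, lower genes numbered 716, 188 and 56 in the order of injured days. TMM factors gave 384 higher and 167 lower at day 7, and 555 higher and 203 lower for day 3 against day 1. Size factors gave 895 higher at day 1, 377 higher and 178 lower at day 7, 500 higher and 268 lower for day 3 against day 1, and 356 higher for day 7 against day 3. The common score window, chosen after seeing the data, gave 1745 lower at day 1, 492 higher and 645 lower at day 3, and 322 higher and 158 lower at day 7. The 90th percentile gave 142 lower for day 3 against day 1. With at least 50 CPM, higher and lower genes numbered 275 and 385 at day 1, 283 and 127 at day 3, 145 and 47 at day 7, 250 and 41 for day 3 against day 1, and 147 and 143 for day 7 against day 3. With no filter they numbered 4163 and 2113, 1727 and 919, 1919 and 293, 1851 and 402, and 1634 and 761. Counts under 3 UMIs were entered at 3, so a gene under 3 UMIs in both sections took the ratio of the section totals. For day 1 against day 0 that gave a log2 ratio of 1.11, so such genes counted as higher. The 4163 is therefore not a count of measured rises. The cause of the other shifts was not tested, except that the filters change how many genes are tested.

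A single score threshold for all sections was not run, since no spot at days 1 and 3 and only 3 at day 7 reached that of day 0. No paired analysis was possible because each day had 1 section. With 1 section per day, differences between animals or sections cannot be told apart from differences between days.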
